A study of Mus musculus with 24 samples.

Results

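Mt1 and Mt2, the genes of the metallothioneins that most tissues express, were followed in HBC-3 cells over a week on Matrigel. HBC-3 is a mouse hepatoblast line, the kind of fetal liver cell that can become hepatocyte or bile duct cell, and Matrigel is a gel of basement membrane proteins used here to make the cells differentiate. The 24 arrays of 2 colours comprised 3 arrays, lettered A, B and C, for each of 8 days: day 0, undifferentiated cells, and days 1 to 7 of culture on Matrigel. Per the labels' protocols, the cells were taken off their STO fibroblast feeder layer by trypsin and replated on plastic in a medium called HBM, and the undifferentiated cells were harvested the next morning. On each array the sample carried Cy5 and a common reference, RNA of undifferentiated cells of the line, carried Cy3, so the day 0 arrays set undifferentiated cells against undifferentiated cells. Members were the features whose gene symbol was Mt1 or Mt2. These were 2 of 24157 features, 1 for each gene, so no second feature checks either value. Both genes were chosen by their measured rise from day 0 to day 1, with the other days in view. Their levels are therefore given as a description, and the only tests on them compare days in which no day 0 or day 1 array stands.

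Metallothioneins are small, cysteine-rich proteins that bind zinc and copper, buffer free zinc in the cell and take up toxic metals such as cadmium. In liver their transcription is driven by zinc through the metal-responsive factor MTF-1, which binds short metal response elements in the promoter, and also by glucocorticoids and by IL-6 acting through STAT3. Fetal liver is known for high metallothionein levels. The genes lie next to each other on mouse chromosome 8 in the same orientation, Mt2 at 94172618 to 94173567 and Mt1 at 94178883 to 94180327 (RefSeq, assembly GRCm38.p6). The promoter table places the Mt1 start at 94179089, inside that extent and 6471 bases from the Mt2 start, so most of the Mt1 stretch below lies within the annotated extent of the gene. Since the values are ratios over whole cultures, a change in the number of cells that express a gene and a change in RNA per cell cannot be told apart.

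The 250 bases before each annotated start are shown because the metal response element is the sequence that defines this pair, with matches to its core in capitals. The letters searched were TGCACNC and TGCGCNC on both strands. The Mt1 stretch is chr8:94178839-94179088 and the Mt2 stretch is chr8:94172368-94172617, both on the plus strand, from the RefSeq promoter table of GRCm38.p6.
Mt1: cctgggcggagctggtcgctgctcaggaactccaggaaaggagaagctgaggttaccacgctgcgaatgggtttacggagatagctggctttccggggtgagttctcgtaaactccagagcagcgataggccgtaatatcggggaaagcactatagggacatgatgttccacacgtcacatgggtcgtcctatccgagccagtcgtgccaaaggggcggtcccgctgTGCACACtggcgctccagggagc
Mt2: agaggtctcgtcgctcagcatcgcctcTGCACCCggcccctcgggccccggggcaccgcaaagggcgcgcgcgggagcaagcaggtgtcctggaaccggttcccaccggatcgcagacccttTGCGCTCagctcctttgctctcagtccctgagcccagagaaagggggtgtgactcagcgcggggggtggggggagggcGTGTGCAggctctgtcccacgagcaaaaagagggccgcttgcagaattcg

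Each window searched also held the 50 bases after the start, which are not printed, 300 bases in all. In that window Mt1 had 3 core matches, TGCACAC beginning 23 bases before the start, TGCACTC at base 3 after it and TGCGCTC at base 21 after it. Mt2 had 4, TGCACCC at 223 bases and TGCGCTC at 128 bases before the start, and on the minus strand TGCACAC at 50 bases before and TGCGCAC at base 5 after it. Of 32851 promoter windows of the same length, 25.7% held at least 1 match, 1.97% held 3 or more and 0.517% held 4 or more. No match overlapped another motif searched. Mt2 also had 1 match to the antioxidant response element core TGACNNNGC, the letters TGACTCAGC at 79 bases before the start, a core that 12.4% of windows held and that was not found in the Mt1 window. The E-box CACGTG (7.15% of windows) and the glucocorticoid response hexamer AGAACA (19% of windows) had 0 matches in either window. These matches are letters in a window and show no binding. The Mt2 start is the first base of its annotated extent and the Mt1 start lies inside its own. The windows may therefore not cover like parts of the promoters, and a core absent from the Mt1 window may lie outside it.

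Values are centred log2 ratios of sample over reference, so 0 means the level of the reference cells and 1 means 2 times that level. No source used here states the base or the direction of the deposited ratio. Base 2 is likely from the range of the values, and the sample as numerator is likely from the dyes. Day 0 arrays did not resemble each other in full: over all features, array A and array C of day 0 correlated at -0.343, and array A of day 0 and array B of day 3 at -0.504. Each difference of Mt1 and Mt2 from day 0 therefore also has its value with turned day 0 signs. The number of arrays limits the precision, and the labels do not say that arrays of one day had cultures of their own. The p-values then measure only how far these arrays scatter, and that scatter may be technical.

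Mt1 stood above the reference on every array of days 1 to 7 that gave a value. On day 0 it stood at 0.74, 1.18 and 0.07 on arrays A, B and C. On day 1 it stood at 2.60, 2.87 and 2.79, a mean of 2.75 ± 0.14 (SD, n = 3) or 6.75-fold over the reference. The day 1 arrays lay close together and well above every day 0 array. On day 2 the values were 2.37, 3.07 and 2.57, and on day 3 they were 2.26, 1.63 and 2.26. Day 4 gave 2.98 on array B and 2.64 on array C, with no value on array A, and day 5 gave 1.87, 2.49 and 2.56. On day 6 the values were 1.81, 3.96 and 2.27, the 3.96 of array B being the highest of the course, and on day 7 they were 1.05, 2.36 and 2.07. Of the 20 values of days 1 to 7, 19 lay above the highest day 0 array, and the exception was array A of day 7. With the sample as numerator, Mt1 was among the most raised features of its arrays, and with the ratio turned it would be among the most lowered: on the day 1 arrays it lay above 99.8 to 99.9% of the features measured, and on the day 7 arrays above 91.9 to 99.1%. Arrays A, B and C of day 0 had it above 95.4, 99.5 and 59.6% of features, so a high rank was not particular to the days on Matrigel.

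Mt2 had a day 0 mean close to that of Mt1, from wider arrays, and its ratios were lower late in the week than on days 1 and 2. On day 0 it stood at 1.38, 0.98 and -0.44 on arrays A, B and C. That spread is wide for arrays whose channels both held undifferentiated cells: Mt2 lay above 99.7% of features on array A and above 8.2% on array C. On day 1 it stood at 2.74, 2.43 and 2.96, a mean of 2.71 ± 0.26 (SD, n = 3) or 6.54-fold over the reference. The day 1 arrays again lay above every day 0 array. Day 2 gave 2.30, 2.80 and 2.19, day 3 gave 2.03, 0.91 and 1.91, and day 4 gave 1.59, 1.93 and 0.97. Day 5 gave 1.33, 1.38 and 1.37, day 6 gave 0.59, 2.53 and 0.99, and day 7 gave 0.76, 1.44 and 0.76. All 21 values of days 1 to 7 lay above the reference, but only 13 of them above the highest day 0 array, and from day 3 on each day had an array within the range of day 0.

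**Figure D1:**
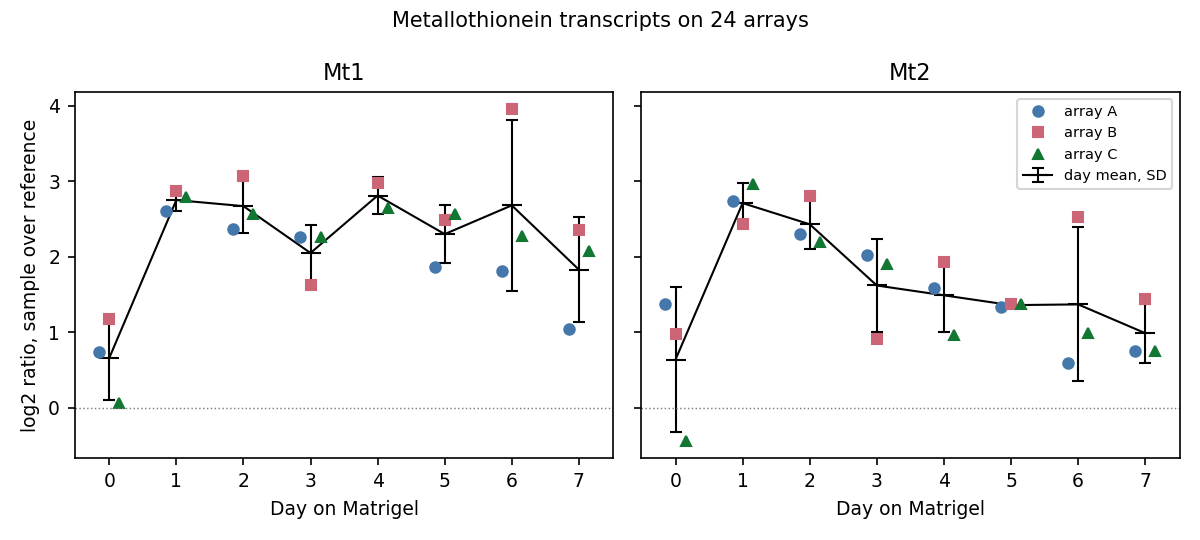
Centred log2 ratio of sample over reference (vertical axis) by day on Matrigel (horizontal axis) for Mt1 and Mt2, with arrays A, B and C as separate points and the day mean with its SD as a line with bars. Both genes stand near 2.7 on day 1; at day 7 the means are 1.83 for Mt1 and 0.99 for Mt2, and array B of day 6 is high for both.

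Measured from the day 0 mean, Mt1 was 2.09 higher on day 1, or 4.26-fold, and Mt2 was 2.07 higher, or 4.20-fold. These are the values for which the genes were picked, and they carry no test here. Turning the sign of all day 0 arrays made them 3.42 and 3.35, and turning array C alone made them 2.14 and 1.77. Read directly against the reference, without day 0, they were 2.75 and 2.71. Leaving out 1 array of either day gave 1.80 to 2.35 for Mt1 and 1.53 to 2.44 for Mt2. On day 7 the difference from day 0 was 1.16 for Mt1 and 0.35 for Mt2. That of Mt1 was 0.52 with arrays scaled to a common spread, 2.49 with all day 0 signs turned and 1.83 against the reference. That of Mt2 was 1.63 with all day 0 signs turned. The Mt2 difference changed sign with scaled arrays (-0.03) and without array C of day 0 (-0.19), and was 0.05 with the sign of that array turned.

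Ordered by day mean, Mt1 stood highest on day 4 (2.81), then on days 1, 6, 2, 5, 3 and 7 (2.75, 2.68, 2.67, 2.30, 2.05 and 1.83), and lowest on day 0 (0.66 ± 0.56, SD, n = 3). No neighbours in this order among days 1 to 7 differed by more than the larger of their SDs. Of all 21 pairs of those days, 8 did and had no overlap of arrays: days 1 and 4 stood above days 3, 5 and 7, and day 2 above days 3 and 7. Day 4 had only 2 arrays with an Mt1 value. Mt2 stood highest on day 1 (2.71), then on days 2, 3, 4, 6, 5 and 7 (2.43, 1.62, 1.49, 1.37, 1.36 and 0.99), and lowest on day 0 (0.64 ± 0.96, SD, n = 3). The only neighbours in this order that lay apart by more than the larger SD were days 2 and 3, with a gap of 0.81 against an SD of 0.62 and no overlap of their arrays. Of all 21 pairs of days 1 to 7, 8 lay apart in this way: days 1 and 2 stood above days 3, 4, 5 and 7. The genes were chosen by their rise to day 1, so pairs with day 1 as the higher day were favoured in advance. Such pairs were not counted over all units, so the counts for both genes are a description only.

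Whether the pair went on changing after the first day was tested between days 5 to 7 and days 2 to 4, with limma across all 10639 units (a gene, or a feature without a gene name). Mt1 had a median of 2.47 over the 8 values of days 2 to 4 (lowest 1.63, highest 3.07) and 2.27 over the 9 values of days 5 to 7 (1.05 to 3.96). The groups overlapped, and the difference was -0.24 ± 0.26 (SE, 95% interval -0.79 to 0.31; adjusted p = 0.701, limma). Mt2 had a median of 1.93 over days 2 to 4 (0.91 to 2.80) and 1.33 over days 5 to 7 (0.59 to 2.53). Its difference was -0.61 ± 0.26 (SE, 95% interval -1.16 to -0.06), which did not pass after adjustment (adjusted p = 0.335, limma; the interval is not adjusted). Without array B of day 6, where both genes were high, the differences were -0.45 for Mt1 and -0.80 for Mt2, with adjusted p = 0.331 and 0.134 (limma). Few units differed between these blocks of days at all: 0.15% were called, 16 of 10639, with 0.094% higher and 0.0564% lower, and 95 with the replicate letter as a block.

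The moderated F-test for any change over days 2 to 7 gave an F of 1.5 for Mt1 (adjusted p = 1) and 2.25 for Mt2 (adjusted p = 0.88, limma). It called 0% of units, 0 of 10639, with 647 below 0.05 before adjustment and the smallest adjusted p at 0.0837. No change of either gene over days 2 to 7 passed a test, which does not show that their levels stayed the same.

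Set side by side on each array, Mt1 and Mt2 had nearly equal ratios on day 1, and Mt1 had the higher ratio on every array of days 4 to 7 with both values. The log2 ratio of Mt1 minus that of Mt2 on the same array was -0.65, 0.20 and 0.52 on day 0 and averaged 0.04 ± 0.34 (SD, n = 3) on day 1. It averaged 0.24 ± 0.16 on day 2 and 0.43 ± 0.25 on day 3 (SD, n = 3 each). It was 1.05 and 1.67 on arrays B and C of day 4, averaged 0.94 ± 0.35, 1.31 ± 0.11 and 0.84 ± 0.52 on days 5, 6 and 7 (SD, n = 3 each), and was above 0 on 11 of 11 arrays of days 4 to 7. On days 1 to 3 it was above 0 on 7 of 9 arrays, and its highest value there was 0.72. This split at day 4 was not set in advance and differs from the blocks of days tested below. Such a run of arrays was not counted for other pairs of genes. A difference of ratios within an array says that the features of the genes read unequal changes, not which gene's level was higher.

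The comparison of this difference between days 5 to 7 (1.03 ± 0.38, SD, n = 9) and days 2 to 4 (0.59 ± 0.53, SD, n = 8) was chosen after its values were seen. The groups differed by 0.44, with p = 0.0707 in a 2-sided exact permutation test over 24310 splits, so it did not pass. Arrays of one letter deviated together on days 4 to 7, and with days permuted within each letter the difference was 0.49 (exact permutation p = 0.0312, 4000 splits), below 0.05. That test was also added after the values were seen, and nothing in the labels ties a letter to a culture. Both tests move single arrays, so arrays of the same day count as independent, and the p-values do not measure the spread between days. The difference was 0.53 among A arrays, 0.47 among B arrays and 0.46 among C arrays. Without array C of day 4 it was 0.59 (exact permutation p = 0.00909), and without array B of day 4, array A of day 5 or array A of day 7 it was 0.50, 0.50 and 0.53 (exact permutation p = 0.0491, 0.048 and 0.0298). With array C of days 4, 5, 6 and 7 left out it was 0.48 (exact permutation p = 0.0484). Leaving out any other single array of these days gave an exact permutation p of 0.0816 to 0.132. How far each feature takes up target of the other gene, which is a close relative in sequence, was not tested.

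**Figure D2:**
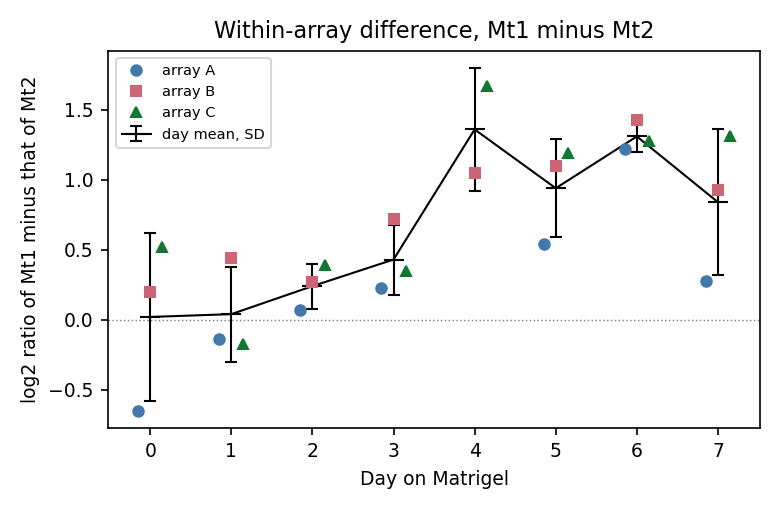
Log2 ratio of Mt1 minus that of Mt2 on the same array (vertical axis) by day on Matrigel (horizontal axis), with arrays A, B and C as points and the day mean with its SD as a line with bars. Every array of days 4 to 7 with both values lies above 0, between 0.28 and 1.67, and the arrays of days 1 to 3 lie between -0.17 and 0.72.

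Some other genes of zinc handling also rose at day 1. Of 24 genes on this list, 10 were tested, and at day 1 3 rose and 0 fell, with a list median of 0.57 against 0.035 over all units, where 4.99% of units were called higher and 5.92% lower (10.9% in all). Slc30a1, the exporter that carries zinc out of the cell and a known MTF-1 target, stood at -0.31 and -0.15 on arrays A and B of day 0 and at 0.95, 0.96 and 0.82 on day 1. It rose by 1.14 ± 0.35 (SE; adjusted p = 0.0498, limma), with no overlap of the days and no value on array C of day 0. Its promoter window held 2 metal response core matches. Of all windows 25.7% held at least 1, and the share with 2 or more was not counted. Slc30a2, at -0.48 on day 1, also had 2, and Slc30a4, at 0.60, had 3 (adjusted p = 0.311 and 0.436, limma). Slc39a10 and Slc39a14, importers of zinc, rose by 1.43 ± 0.38 and 0.77 ± 0.23 (SE; adjusted p = 0.0212 and 0.0357, limma). Slc39a10 had 0 core matches in its window. These calls hung on single arrays: the count of 3 became 0 without array A or B of day 0 or array B of day 1, and 1 without array A or C of day 1. With the sign of day 0 turned the count was 1.

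At day 7, where Mt1 and Mt2 stood at 1.16 and 0.35 over day 0, 4 zinc handling genes were higher and 1 lower, against 14.6% and 13% of units (27.6% in all). The exporters Slc30a1, Slc30a4, Slc30a7 and Slc30a9 rose by 1.40, 1.64, 0.74 and 0.67, and the transporter gene Slc39a13 fell by 0.82. Slc39a10 and Slc39a14 were at 0.56 and 0.24 (adjusted p = 0.285 and 0.451, limma). The count of 5 was 0 with the sign of day 0 turned and 2 with array C of day 0 turned or against the reference channel. It was 2, 1 and 3 without array A, B or C of day 0, and 3 and 1 without array A or C of day 7. Mtf1, the gene of the metal-responsive factor, and the other metallothionein genes Mt3 and Mt4 were not analysed here.

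Of 30 copper and iron handling genes 11 were tested and 0 were called at day 1, against 10.9% of all units (1 without array C of day 0, 3 with arrays scaled). At day 7, where 27.6% of all units were called, Atp7a, a copper pump, and Slc31a1, the copper importer, rose by 1.21 and 1.16, and Tfrc, the transferrin receptor, fell by 0.92 (5 were called in all without array C of day 7, and 0 with the sign of day 0 turned). Hmox1, the heme oxygenase induced by heme, metals and oxidative stress, stood at 0.55 ± 0.68 on day 1 and 1.65 ± 0.68 on day 7 (SE; adjusted p = 0.696 and 0.0746, limma), and the day 7 value passed in 6 of 18 alternatives.

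Oxidative stress is another setting in which metallothionein is known to rise, and its genes were called at shares near those of all units, 10.9% at day 1 and 27.6% at day 7. Of 13 tested NRF2 targets and glutathione genes, 1 was higher and 1 lower at day 1: Mgst1, a membrane glutathione transferase, rose by 2.03 ± 0.35, and Abcc3, a conjugate exporter, fell by 1.42 ± 0.23. Nfe2l2, the gene of NRF2, stood at 1.25 ± 0.48 (SE; adjusted p = 0.0988, limma) and at day 7 rose by 1.67 (adjusted p = 0.0135, limma). At day 7, 3 of the 13 were higher and 1 was lower (2 called in all without array B of day 0 or with the sign of day 0 turned). Of 13 antioxidant enzymes, 2 were higher and 0 lower at day 1, the plasma selenium carrier gene Selenop and the glutaredoxin gene Glrx, by 2.25 and 1.98 (1 called without array A of day 0 and 0 with the sign of day 0 turned). At day 7 the same 2 rose, and Gpx1, the gene of a glutathione peroxidase, and Prdx4 fell by 1.01 and 0.97 (2 called in all without array B of day 0, without array C of day 7 or with the sign of day 0 turned).

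Genes of the IL-6 and STAT3 pathway, an inducer of liver metallothionein, gave the most calls among the lists, 7 of 8 at day 1 against 4.99% of units called higher. This list was chosen with the rise of some of its members known, so its direction is no independent evidence. The list holds 30 genes, of which 8 were tested, with 0 lower and a median of 1.47. One of the 7 is Slc39a14, which is also on the zinc list. Lbp, of the acute phase protein that binds lipopolysaccharide, rose by 2.22 ± 0.56, Socs3, the feedback inhibitor of the pathway, by 2.01 ± 0.45 and Jak2, a kinase of cytokine receptors, by 1.90 ± 0.34 (SE; adjusted p = 0.0171, 0.00812 and 0.00152, limma). Osmr, the receptor of oncostatin M, rose by 1.82 ± 0.58 (SE; adjusted p = 0.0481, limma), a call lost in 7 of 18 alternatives, and the shared receptor gene Il6st stood at 0.52 (adjusted p = 0.411, limma). At day 7 again 7 of 8 were higher, with Lbp at 4.08, Osmr at 1.99 and Il6st at 1.95, and a list median of 1.5. Over the 7 members with a value on every array, the mean level was 1.13 on day 1 and 1.21 on day 7. The day 1 count was 1 without array A or B of day 0, 4 without array A of day 1, and 2 without array B or C of day 1 or with the sign of day 0 turned. The day 7 count was 4 without array A of day 0 and 3 with the sign of day 0 turned.

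Of 10 tested genes of the glucocorticoid response, 2 were higher and 0 lower at day 1, Klf9 by 1.41 ± 0.35 and Glul, glutamine synthetase, by 1.28 ± 0.32 (SE; adjusted p = 0.0126 and 0.0149, limma), against 4.99% of all units higher. Among the members not called, Fkbp5, Per1 and Tsc22d3 stood at -0.16, 0.06 and 0.64 (adjusted p = 0.709, 0.931 and 0.147, limma). Nr3c1, the receptor gene, stood at -0.18 (adjusted p = 0.862, limma). At day 7, 4 were higher, Klf9, Bcl2l1, Tsc22d3 and Glul, by 2.54, 1.60, 1.27 and 1.11, and Fkbp4 fell by 1.34, against 14.6% of all units higher and 13% lower. The day 1 count was 0 without array B of day 0, without array C of day 1 or with the sign of day 0 turned, and 1 without array A of day 0 or array A of day 1. The day 7 count of 5 was 3 without array B of day 0, without array C of day 7 or with array C of day 0 turned, and 2 with all day 0 signs turned.

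Hypoxia and heat shock genes stand against 10.9% of all units called at day 1 and 27.6% at day 7. Of 14 tested hypoxia genes 3 were higher and 0 lower at day 1 and again at day 7, the mitophagy genes Bnip3 and Bnip3l and Hif1a, by 2.55, 1.75 and 1.61 and then by 3.50, 2.67 and 1.62 (0 and 1 called with the sign of day 0 turned). Of 16 heat shock genes 1 was higher and 1 lower at day 1, the co-chaperone gene Bag3 by 0.85 and the small heat shock protein gene Cryab by -1.73. The heat shock count of 2 was 1 or 0 without any 1 array of day 0 or day 1, and 1 with the sign of day 0 turned. At day 7, 2 of the 16 were higher and 2 lower, Cryab at -2.71 and Fkbp4, which is also on the glucocorticoid list (2 called in all without array B of day 0 or array C of day 7).

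**Figure D3:**
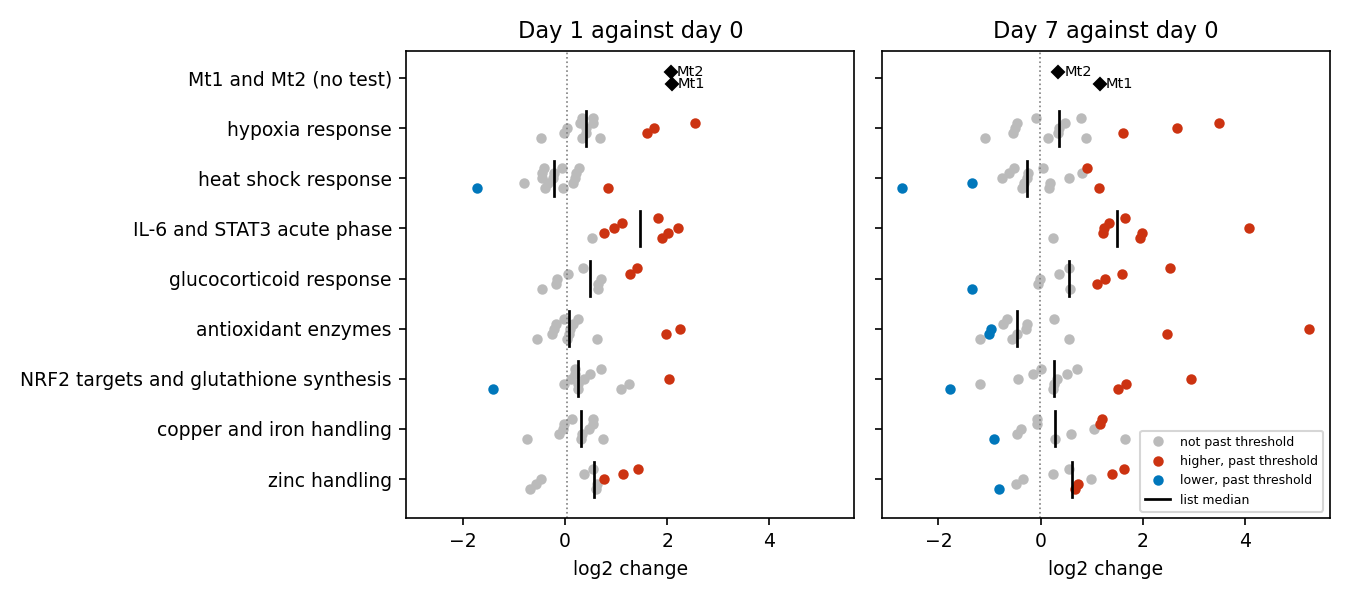
Log2 change against day 0 (horizontal axis) at day 1 (left) and day 7 (right) for the tested members of 8 gene lists, with red and blue points for members called higher and lower, grey points for the rest, a black bar for the list median and a dotted line for the median of all units. Diamonds give Mt1 and Mt2, which carry no test, at 2.09 and 2.07 on day 1 and at 1.16 and 0.35 on day 7.

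The genes whose course was most like that of the metallothioneins were sought among the 4081 genes measured on all 24 arrays, by Pearson correlation with the mean of Mt1 and Mt2 over the 23 arrays on which both were measured. This is a description, and the arrays share one reference RNA and, within a day, their culture stage. Highest were Exoc3l4 at 0.840, Coro7, a coronin of the Golgi, at 0.811, and Hadh, an enzyme of mitochondrial fatty acid oxidation, at 0.802. Smim3 followed at 0.772, Kdm5b, a histone demethylase, at 0.762, Jarid2, a partner of the Polycomb complex, at 0.750, Gpc1, a heparan sulfate proteoglycan, at 0.744, and Arfip1 at 0.738. Lowest were Kctd5 at -0.817, Tor3a at -0.796 and Utp4 at -0.795.

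Gpc1 had the highest day 1 mean of the 8, with day means of -0.08 on day 0, 2.33 on day 1 and 1.05 on day 7. Smim3 went from -0.40 to 1.93 and then 0.76. Which genes ranked as most alike depended on the arrays used: over the 20 arrays of days 1 to 7 alone, the 8 genes correlated at 0.592 to 0.750 and 0 of them were among the 8 most alike, and over the 8 day means 1 was, Smim3 at 0.946. None of the 8 is on the zinc, copper and iron, NRF2, antioxidant, glucocorticoid, IL-6, heat shock or hypoxia lists. These lists hold at most 217 genes, fewer of them among the 4081 searched, so this absence is no result about those pathways.

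**Figure D4:**
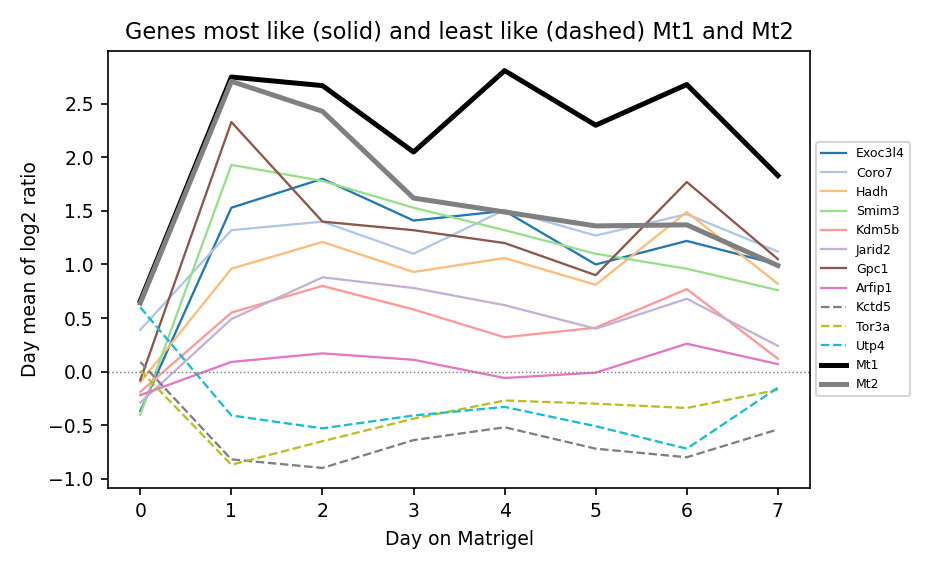
Day mean of the centred log2 ratio (vertical axis) by day on Matrigel (horizontal axis) for Mt1 and Mt2 (thick lines), the 8 genes most like them (solid) and the 3 least like them (dashed). Gpc1 reaches 2.33 on day 1, and the least alike genes fall below 0 on day 1, Tor3a to -0.87.

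Some markers of fibroblasts, the feeder cell type, were also higher. Of 19 fibroblast markers 10 were tested, and 3 were higher and 0 lower at day 1, Pdgfrb, Col6a1 and Col5a1, by 2.29, 1.81 and 1.43, against 4.99% of all units higher. At day 7 again 3 were higher and 0 lower, Dcn, Pdgfrb and Prrx1, by 6.06, 1.82 and 0.95, against 14.6%, and Col5a1, Col5a2 and Col6a2 stood at -0.16, -0.71 and -0.52 (adjusted p = 0.699, 0.179 and 0.431, limma). Over the 7 markers with a value on every array, the mean level was -0.97 to 0.10 on the day 0 arrays, 0.25 to 0.85 on the day 1 arrays and 0.12 to 0.69 on the day 7 arrays. Ratios have no level of 0 expression, so none of these markers can be called absent, and their part in the metallothionein values was not tested. Hepatoblast markers were measured in small number: of 20 genes 4 were tested, with 0 called at day 1. At day 7 Afp, H19 and Igf2 were higher by 1.93, 3.34 and 1.80, and Apob stood at -0.38 (adjusted p = 0.116, limma). Krt8, on the same list, had too few values to be tested. Its mean was 0.06 on day 0 and -0.59 on arrays A and C of day 1, and array A of day 7 gave -0.70. Alb, which would define hepatocytes, was not analysed here. Krt19, a duct marker, had too few values to be tested: it stood at -0.68 and 0.10 on arrays B and C of day 0 and at -0.04, 0.61 and 0.22 on day 1, and the days overlapped. Krt7, another duct marker with too few values, stood at 0.84, 0.69 and -0.15 on day 0 and had no value on day 1. From day 4 on its few values lay between -2.17 (array A of day 4) and 0.83 (array C of day 6). Of 3 duct markers tested Itga6 rose at day 1 by 0.86 and stood at -0.31 at day 7 (adjusted p = 0.298, limma). Anxa4 rose at day 7 by 1.27. Bicc1 stood at 1.45 and 1.47 at day 1 and day 7 (adjusted p = 0.411 and 0.284, limma). Its day 7 arrays A, B and C stood at 2.05, 2.71 and -1.42. The endothelial marker Cdh5 stood at 0.08 and 0.12 at day 1 and day 7 (adjusted p = 0.934 and 0.847, limma). Of 3 blood cell markers Hba-a1 was higher at day 1 by 1.33 and Tyrobp at day 7 by 2.29. The day 1 arrays of Hba-a1 stood at 2.10, 0.02 and 1.89, so array B lay within the range of day 0. Of 2 smooth muscle markers Smtn was lower on both days, by -1.03 and -0.98, and Mylk higher at day 7 by 2.10. Marker calls were not repeated with arrays left out or day 0 signs turned.

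The 4 C arrays of days 4 to 7 resembled each other more than they resembled the A and B arrays of those days. Over all features they correlated with each other at 0.808 to 0.967 and with the A and B arrays at 0.398 to 0.644. For Mt1 they stood at 2.64, 2.56, 2.27 and 2.07, and the mean of the other arrays of the same days was 2.98, 2.18, 2.88 and 1.71, so the C arrays were lower on days 4 and 6 and higher on days 5 and 7. For Mt2 they stood at 0.97, 1.37, 0.99 and 0.76 against 1.76, 1.36, 1.56 and 1.1. With these 4 arrays left out, Mt1 and Mt2 differed between days 5 to 7 and days 2 to 4 by -0.31 and -0.60 (adjusted p = 0.692 and 0.396, limma).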

How the data were processed

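The 24 arrays compared HBC-3 cells at day 0 or at days 1 to 7 on Matrigel with a common reference of undifferentiated HBC-3 cells. The deposited values are log ratios, read here as log2 of Cy5 over Cy3, from their range and the dyes that the authors' protocols give, from -6.25 to 6.90; no source used here gives the authors' scanner, background correction or normalization. Deposited column medians lay between -0.0253 and 0.0295, and each array was centred on its median. Values per array numbered 12328 to 22149. Symbols came from the platform annotation (13319 features with 1 symbol, 589 with several, the rest unlisted), updated through Entrez identifiers in a RefSeq table of GRCm38.p6 for 13290 features; 10838 features stayed unnamed. The unit was a gene, as the mean over its features, or an unnamed feature, with values on at least 2 arrays of each day: 10639 of 19153 units, 5660 of them genes.

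A mean for each day was fitted over all arrays (limma 3.58.1, R 4.3.3), with 2-sided tests and Benjamini-Hochberg adjustment over all units at 0.05. The F-test compared fits with and without separate means for days 2 to 7. On simulated data with 10639 units, log2 changes of 1 and 2 were called in 40% and 78% of cases for day 1 against day 0, 81% and 99% for days 5 to 7 against days 2 to 4, and 58% and 96% for the F-test, with 7, 8 and 8 false calls. The simulated noise was independent between arrays, whereas same-letter arrays deviated together in these data, so the rates may not hold for them. Named genes were Mt1, Mt2, up to 3 called members of each list and comparison by size, Slc30a1, Nfe2l2, Nr3c1 and Hmox1, the 8 most and 3 least alike genes, and markers. Further list members are named to complete small counts or as context, chosen after their values were seen. The members and lists were chosen with earlier results of these data known. The permutation tests of Mt1 minus Mt2, over all arrays and within letters, were added after its values were seen. Alternatives were no centring, scaling to a common median absolute value, turned day 0 signs, the reference channel as base, medians over features, other filters, fits of the compared days only, a replicate block, robust eBayes and leaving out arrays.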

Additional observations from a re-analysis of the deposited data

How the results depend on the processing

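The main limits are 3 arrays a day, 1 feature a gene, and day 0 arrays that differ among themselves. The tests of Mt1 and Mt2 over days 2 to 7 stayed on the same side of the threshold and, for the difference, in the same direction under all alternatives that could be fitted; without 1 array, days 5 to 7 minus days 2 to 4 ranged from -0.45 to -0.10 for Mt1 and from -0.80 to -0.48 for Mt2. With values on all 24 arrays required, Mt1 was not tested, and single features gave no further value because each gene has 1.

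With arrays scaled, Mt1 stood at 2.60 on day 1 and 0.52 on day 7 over day 0, and Mt2 at -0.03 on day 7. With all day 0 signs turned, Mt1 stood at 3.42 and 2.49 and Mt2 at 3.35 and 1.63, and against the reference channel Mt1 stood at 2.75 and 1.83. Without 1 array, day 7 minus day 0 was 0.87 to 1.55 for Mt1 and -0.19 to 0.72 for Mt2, and day 1 minus day 0 was 1.80 to 2.35 and 1.53 to 2.44. The cause of these shifts was not tested, beyond the day 0 values that enter them.

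Counts of all units moved more. At day 1 the 1161 called became 3216 with scaling, 515 with day 0 turned, 1812 with no filter, 592 with values on all arrays, 2577 with only the days compared, 2271 without the late C arrays and 330 to 1565 without 1 array. At day 7 the 2940 became 1230 with day 0 turned, 1607 with only the days compared and 1616 to 3100 without 1 array. Between days 5 to 7 and days 2 to 4 the 16 became 46 with scaling, 82 with no filter, 1 with only the days compared, 95 with the replicate block and 7 to 57 without 1 array. The F-test's 0 became 7 with scaling, 8 with the replicate block, 3 without the late C arrays and 0 to 2 without 1 array. Same-letter arrays deviated together (correlation over 0.1) in 18 of 18 pairs of days 4 to 7 and 9 of 9 of days 1 to 3, but in 21 of 36 pairs between those spans, and nothing in the labels ties a letter to a culture, so the letters were not taken as pairs. The replicate block gave -0.19 for Mt1 and -0.61 for Mt2 (adjusted p = 0.68 and 0.221, limma).

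Of the named genes' alternatives 752 kept their side of the threshold, 112 lost it and 9 passed it, and 0 changed sign while called. Of list counts 214 stayed within 1.5 times and 74 did not. With arrays scaled, day 1 calls numbered 7 of 10 for zinc handling, 3 of 11 for copper and iron, 5 of 13 for NRF2, 3 of 13 for antioxidant, 4 of 10 for glucocorticoid, 7 of 8 for IL-6, 3 of 16 for heat shock and 3 of 14 for hypoxia genes.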
